A study of Mus musculus with 16 samples.

Results

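Neurotrophins are secreted growth factors of the nervous system, and 6 genes of this family and its receptors are described here across the mouse cortex of rested and sleep-deprived animals. The 6 genes are Bdnf and Ntf3 (the ligands BDNF and neurotrophin-3), Ntrk2 and Ntrk3 (their receptors TrkB and TrkC), Ngfr (the receptor p75) and Sort1 (sortilin). They were taken by name from the table of all genes, where each of the 6 had 1 row among 22880. All 6 passed the filter on low values, which asked for 10 normalized counts or more in no fewer than 4 libraries of a comparison.

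The brain cortex of 16 individual mice of an F1 cross between the strains C57Bl6/J and Sv129 was sequenced as total RNA, 4 mice in each of 4 groups. WT_BL were wild type littermates left undisturbed (baseline), and WT_SD were wild type littermates handled gently to hold them awake over the first 4 h of light. KO_BL and KO_SD were mice that lack the BK potassium channel, the product of Kcnma1, which opens with calcium and depolarisation, undisturbed or sleep-deprived in the same way. All mice were housed in pairs under a light-dark cycle, and tissue was taken at zeitgeber time 4, so rested mice were sampled in their main sleep phase. The labels do not give the age of the animals or the allele that removes the channel. A number after a group name marks the library of 1 animal, so p-values measure the spread between animals.

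BDNF and neurotrophin-3 are made as longer precursors and act after cleavage, mature BDNF mainly through TrkB and neurotrophin-3 mainly through TrkC, both of which are receptor tyrosine kinases. The uncleaved precursors bind p75 together with sortilin, and sortilin also guides BDNF into the regulated secretory pathway. In the cortex, neuronal activity raises Bdnf transcription through several alternative promoters, and BDNF in turn is known for its part in synaptic plasticity and in the depth of sleep after waking.

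The libraries held 8763778 to 30503113 reads, recovered from the deposited normalized counts. Kcnma1 had normalized counts of 1151 to 1889 in WT_BL and 1425 to 2156 in KO_BL, and of 822.7 to 1583 in WT_SD and 432.2 to 2004 in KO_SD. No genotype difference passed the test at baseline (log2 fold change 0.25 ± 0.178 SE, limma adjusted p = 0.982) or after sleep deprivation (-0.19 ± 0.39 SE, limma adjusted p = 1). A count over the whole gene also takes reads from outside a deleted part, so every genotype direction rests on the labels. All 6 excitatory neuron, 7 GABA neuron and 8 astrocyte markers passed the filter, as a cortex label requires. Markers of neighbouring tissue varied between libraries, and 2 libraries stood apart in values used here, KO_BL 2 and KO_SD 4. Test results that rest on them are given with and without them. In bulk tissue, fewer cells of a type and less RNA per cell cannot be told apart.

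Bdnf (ENSMUSG00000048482, GRCm38 chromosome 2, 109674700 to 109727007, plus strand) has 11 annotated transcripts in the deposited table, which begin at 9 different first bases and share the last exon that codes for the protein. The count sums all of them, so which promoter was in use was not measured. The 250 bases before 2 of the first bases are shown, because Bdnf is the member that responded to sleep deprivation and these 2 of its 7 RefSeq promoter windows hold a searched motif of the activity-regulated classes. Both were read on the plus strand of GRCm38.p6 and end at the base before transcription starts. Capitals mark the short form TGACG of a cyclic AMP response element (CRE; here on the opposite strand as CGTCA) in the promoter of exon IV, and an AP-1 motif (TGANTCA) in a promoter farther upstream.
Bdnf exon IV promoter, chr2:109692186-109692435: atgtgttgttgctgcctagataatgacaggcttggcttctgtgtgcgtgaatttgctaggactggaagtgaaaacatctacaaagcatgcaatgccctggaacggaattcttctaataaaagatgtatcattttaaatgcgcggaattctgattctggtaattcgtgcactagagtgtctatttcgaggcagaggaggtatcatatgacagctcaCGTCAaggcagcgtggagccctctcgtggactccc
Bdnf upstream promoter, chr2:109676782-109677031: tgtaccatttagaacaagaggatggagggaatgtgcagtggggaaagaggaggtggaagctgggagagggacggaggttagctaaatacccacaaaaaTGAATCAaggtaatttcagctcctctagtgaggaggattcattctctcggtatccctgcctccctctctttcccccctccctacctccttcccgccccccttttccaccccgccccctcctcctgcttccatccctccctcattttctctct

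The short CRE form lies at positions -35 to -31, counted back from the first transcribed base, in the promoter long studied as the calcium-responsive one in rodent neurons. The AP-1 match lies at positions -152 to -146. Searched on both strands in the 250 bases before the start, TGACG was present in 17.7% of all 32817 RefSeq windows and TGANTCA in 6.75%. The full CRE, TGACGTCA, was in 1.55% of all windows and in none of those of the 4 members with an entry (Bdnf, Ntf3, Ntrk2 and Ngfr). The serum response CArG box was in 1.47% of all windows and likewise in none of theirs. An E-box (CANNTG), the motif of basic helix-loop-helix factors, was in 66.2% of all windows and in 6 of the 7 Bdnf windows. A full CRE contains the short form. These matches describe the letters of the windows only. Ntrk3 and Sort1 had no entry.

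Bdnf rose after sleep deprivation in both genotypes, and it is the single member that passed the test in either. The 4 rested wild type libraries had normalized counts of 497.2, 474.2, 515.7 and 435.0, and the 4 sleep-deprived ones 1026, 1139, 1235 and 684.2. Every sleep-deprived wild type library lay above every rested one, and WT_SD 4 was the lowest of the sleep-deprived. The mean went from 480.5 ± 34.8 to 1021 ± 240 (SD, n = 4 each). On the log2(normalized count + 1) scale this was 1.05 ± 0.158 SE (limma with Benjamini-Hochberg adjusted p = 0.00922). Of all 14310 genes tested, 1.36% were called in this comparison, and 10.3% had groups that did not overlap. Without WT_SD 4 the change was 1.24 (limma adjusted p = 0.000746). WT_SD 4 had the most oligodendrocyte marker RNA of the 16 libraries, a sum of 119400 against 49440 to 114200, and its part in the lower Bdnf value was not tested.

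In the knockout mice Bdnf moved the same way. The rested libraries had 694.9, 468.3, 620.7 and 572.2, and the sleep-deprived ones 1825, 1320, 1029 and 1343. The groups again did not overlap, with KO_SD 1 highest and KO_BL 2 lowest. The mean went from 589 ± 95 to 1379 ± 330 (SD, n = 4 each), and the log2 change was 1.21 ± 0.183 SE (limma adjusted p = 0.03). In this comparison 0.23% of 14318 genes were called and 8.23% had groups that did not overlap. The call depended on the full set of libraries. It was lost without KO_BL 2, 3 or 4 (limma adjusted p = 0.102, 0.114 and 0.0874), without KO_SD 2, 3 or 4 (0.0932, 0.0609 and 0.0509) and without KO_BL 2 and KO_SD 4 together (0.136), while the change stayed between 1.1 and 1.34 in those fits.

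Averaged over both genotypes in 1 model of 16 libraries, the Bdnf change was 1.13 ± 0.129 SE (95% interval 0.86 to 1.40, limma adjusted p = 6.76e-05), read against 10% of 14604 genes called. It was 1.08 without KO_BL 2 and KO_SD 4 (limma adjusted p = 0.000463). The authors' deposited table gives Bdnf a log2 ratio of baseline over sleep deprivation of -0.86 in wild type (false discovery rate 3.04e-08) and -0.99 in knockout (5.34e-07), the sign being that of the inverse ratio. Markers of tissue next to the cortex also differed with sleep deprivation. Of the hippocampal markers, 9 of 9 tested had values above 0 in wild type and 7 of 8 in knockout, with 0 called. Their sum ranged over 3391 to 6505 at rest and 5188 to 7356 after sleep deprivation in wild type, and over 3891 to 5218 and 3723 to 5381 in knockout. Of 10 striatal markers all had values below 0 in both genotypes, and 6 were called lower over both. The thalamic marker sum was 1253 to 1449 at rest and 1592 to 1922 after sleep deprivation in wild type, which do not overlap, and 1102 to 1976 and 1736 to 2031 in knockout, which do. Of its 6 markers 1 was called higher, Slc17a6, a glutamate transporter of thalamic neurons (0.69 ± 0.118 SE in wild type, limma adjusted p = 0.0187, and 0.64 ± 0.187 SE over both genotypes, limma adjusted p = 0.0395). All 6 oligodendrocyte markers had values above 0 in both genotypes (medians 0.31 in wild type and 0.41 in knockout), and 1 was called higher over both. All 5 blood markers had values below 0 in both genotypes (medians -0.77 and -0.97), and 2 were called lower over both. The part of any of these tissues or cells in the Bdnf change was not tested.

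**Figure D1:**
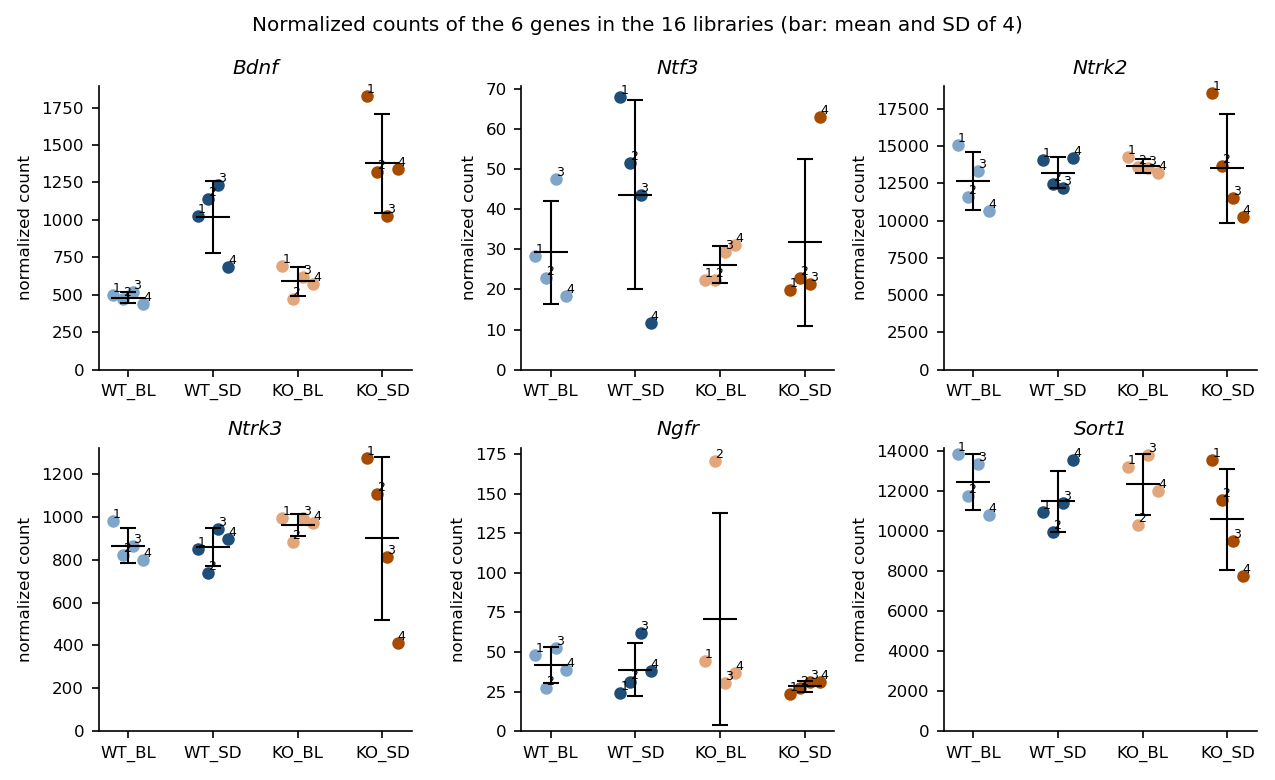
Normalized count of each of the 6 genes (y axis, from 0) in the 4 groups (x axis). Points are single libraries with their replicate number, and the bar is the mean and SD of 4. For Bdnf all sleep-deprived libraries lie above the rested ones of their genotype (1029 or more against 694.9 or less in knockout), and for the other genes the groups overlap.

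The size of the Bdnf response did not differ detectably between genotypes. The interaction, the knockout change minus the wild type change, was 0.16 ± 0.258 SE (95% interval -0.39 to 0.70, limma adjusted p = 1), with 0% of 14604 genes called by limma, 160 at an unadjusted p under 0.05, 0 called by edgeR and 1 by DESeq2. Without WT_SD 4 it was -0.02, so its sign rests on that library.

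Bdnf was also compared between genotypes within each condition. At baseline the knockout mean exceeded the wild type mean, 589 against 480.5, by 0.28 ± 0.121 SE on the log2 scale (95% interval 0.02 to 0.54). The unadjusted limma p was 0.0384 and the adjusted p 0.982, so the difference did not pass, and KO_BL 2 fell among the wild type values. In that comparison 0.0139% of 14341 genes were called and 1.78% had groups that did not overlap. After sleep deprivation the difference was 0.44 ± 0.212 SE (95% interval -0.03 to 0.90, limma adjusted p = 1), with 0% of 14280 genes called and 1.35% with groups that did not overlap. Without WT_SD 4 it was 0.26 ± 0.187 SE (limma adjusted p = 1). Here KO_SD 3, at 1029, lay inside the wild type range and the other 3 knockout libraries lay above it. Limma gave 232 genes an unadjusted p under 0.05 there, and edgeR and DESeq2 on recovered reads called 0.

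Averaged over both conditions, a comparison added after the values were seen, the knockout minus wild type value of Bdnf was 0.36 ± 0.129 SE (95% interval 0.09 to 0.63). Its unadjusted limma p was 0.0125 and its adjusted p 0.991, with 0% of 14604 genes called by limma, 456 at an unadjusted p under 0.05, 0 called by edgeR and 6 by DESeq2. In rising order the group means were those of WT_BL, KO_BL, WT_SD and KO_SD. The neighbours WT_BL and KO_BL, and WT_SD and KO_SD, did not differ beyond their spread by the adjusted test.

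Ntf3 (ENSMUSG00000049107, chromosome 6, 126101412 to 126166910, minus strand) was counted at a low level, from 10 to 63 reads a library. The WT_BL libraries had normalized counts of 28.41, 22.83, 47.7 and 18.34, and those of WT_SD 67.98, 51.72, 43.53 and 11.62. They were 22.27, 22.3, 29.36 and 30.99 in KO_BL and 19.99, 22.82, 21.27 and 62.97 in KO_SD. The lowest and the highest value of the wild type mice both fell in WT_SD, and KO_SD 4 lay apart from the other 3 knockouts of its group. The fewest reads, 10 in KO_BL 1, carry an exact 95% Poisson interval of 4.8 to 18.4 reads, which covers counting error only.

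Neither genotype gave a call for Ntf3. The change after sleep deprivation was 0.41 ± 0.483 SE in wild type (95% interval -0.65 to 1.47, limma adjusted p = 0.704) and 0.11 ± 0.363 SE in knockout (-0.69 to 0.91, limma adjusted p = 0.927). Without WT_SD 4 the wild type value was 0.94 (limma adjusted p = 0.123), and without KO_SD 4 the knockout value was -0.27 (limma adjusted p = 0.715). The wild type interval includes the change of 1.05 found for Bdnf, and the knockout interval lies below the 1.21 found for Bdnf there.

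Ntrk2 (ENSMUSG00000055254, chromosome 13, 58806569 to 59133970, plus strand) encodes TrkB. The deposited table sums 2 of its transcripts, which code for proteins of 821 and 476 amino acids, the full-length receptor with its kinase and the truncated form without it that astrocytes make in quantity. A shift from one form to the other would not show in the sum. Normalized counts were 15090, 11600, 13350 and 10660 in rested and 14100, 12440, 12200 and 14190 in sleep-deprived wild type mice. In knockout mice they were 14300, 13580, 13500 and 13180 at rest, and 18600, 13700, 11490 and 10260 after sleep deprivation. The groups overlapped in full, and KO_SD held both the highest and the lowest library of the 16.

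Its change after sleep deprivation was 0.07 ± 0.109 SE in wild type (95% interval -0.17 to 0.31, limma adjusted p = 0.779) and -0.05 ± 0.166 SE in knockout (-0.42 to 0.32, limma adjusted p = 0.926). Neither interval reaches the 1.05 and 1.21 found for Bdnf. The sum of the 8 astrocyte markers was 102000, 72830, 67590 and 64880 in KO_SD 1 to 4, the same order as Ntrk2. Most of it was Slc1a2 (74720, 51410, 45720 and 40530), and no other of the 8 markers had this order. Gfap, for example, was highest of the group in KO_SD 4 (3323), and Aldh1l1 was lowest in KO_SD 1 (1167). Over all 16 libraries Ntrk2 amounted to between 15.5% and 20.3% of the sum of the 8 markers. The share was 16.4% ± 0.271 at rest and 16.3% ± 0.794 after sleep deprivation in wild type, and 17.7% ± 2.06 and 17.4% ± 1.33 in knockout (SD, n = 4 each). Genes of at least 5000 bases had a median log2 deviation from the mean of the 16 libraries of 0.26, -0.03, -0.12 and -0.36 in KO_SD 1 to 4. This too is the order of Ntrk2. The parts of astrocyte RNA and of gene length in the Ntrk2 values were not tested.

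Ntrk3 (ENSMUSG00000059146, chromosome 7, 78175959 to 78738012, minus strand) encodes TrkC, and 6 of its transcripts enter the count. In WT_BL its normalized counts were 980.2, 820.7, 866 and 796.6, and in WT_SD 851.7, 739.7, 944.9 and 896.5. The KO_BL libraries had 993.3, 884.5, 993.3 and 972.8, and the KO_SD libraries 1274, 1107, 810.5 and 408.7. The first 3 groups were tight, and KO_SD spread over a wide range with KO_SD 4 lowest of all 16. The change after sleep deprivation was -0.01 ± 0.099 SE in wild type (95% interval -0.23 to 0.20, limma adjusted p = 0.96) and -0.22 ± 0.29 SE in knockout (-0.85 to 0.42, limma adjusted p = 0.788). Without KO_SD 4 the knockout value turned to 0.12 ± 0.151 SE (limma adjusted p = 0.804).

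KO_SD 4 also stood apart in gene length and in markers. Genes of at least 5000 bases had a median log2 deviation of -0.36 there and those under 1000 bases one of 0.44, while in KO_SD 1 these were 0.26 and -0.29 and in the other 14 libraries between -0.18 and 0.18. The summed excitatory neuron markers were lowest in KO_SD 4, 76100 against 86760 to 119900 in the other libraries. The long-gene medians of KO_SD 2 and KO_SD 3 were -0.03 and -0.12, so they fell from KO_SD 1 to 4, as Ntrk3 did. The part of gene length or of these markers in the Ntrk3 values was not tested.

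Sort1 (ENSMUSG00000068747, chromosome 3, 108284082 to 108361511, plus strand) encodes sortilin. It was counted at 13860, 11760, 13320 and 10790 in WT_BL and at 10950, 9956, 11400 and 13560 in WT_SD. The knockout values were 13190, 10300, 13790 and 11990 at rest and 13520, 11550, 9477 and 7727 after sleep deprivation. All groups overlapped, and KO_SD 4 was again the lowest library. Sort1 fell from KO_SD 1 to 4 in the order of the long-gene medians, whose part in it was not tested. The log2 fold change after sleep deprivation was -0.12 ± 0.109 SE in wild type and -0.24 ± 0.172 SE in knockout, and neither passed (limma adjusted p = 0.612 and 0.579). Over both genotypes the value was -0.18 ± 0.107 SE (95% interval -0.41 to 0.05, limma adjusted p = 0.289), and without KO_SD 4 it was -0.11 (limma adjusted p = 0.485).

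Ngfr (ENSMUSG00000000120, chromosome 11, 95568818 to 95587735, minus strand) encodes p75, which in the adult forebrain is known mainly from cholinergic neurons whose cell bodies lie below the cortex. It had 18 to 207 reads a library. Normalized counts were 48.08, 26.98, 52.64 and 38.43 in WT_BL and 23.99, 31.2, 62.33 and 37.97 in WT_SD. The knockout libraries had 44.54, 171, 30.38 and 36.75 at rest and 23.52, 27.26, 31.34 and 30.87 after sleep deprivation. KO_BL 2 was the highest library by far, and the groups otherwise overlapped. Its 207 reads have an exact 95% Poisson interval of 180 to 237.

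KO_BL 2 was also the library with the most basal forebrain cholinergic marker RNA. The sum of Chat, Slc5a7 and Slc18a3 was 418.7 there, 201.1 in WT_BL 1 and between 32.65 and 98.7 in the other 14. Chat, the acetylcholine-making enzyme, stood at 123.1 in KO_BL 2, 85.24 in WT_BL 1 and 3.528 to 29.61 elsewhere. In WT_BL 1 Ngfr was 48.08, inside the range of its group. After sleep deprivation 2 of the cholinergic markers were tested in each genotype. Both had values below 0 in wild type and in knockout, with medians of -1.18 and -1.31 and 0 called. The part of cholinergic cells in the Ngfr values was not tested, and neither was the part of striatal tissue, whose markers summed to 19490 in KO_BL 2 and 25130 in WT_BL 1.

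The knockout and the baseline comparisons of Ngfr depended on KO_BL 2. The change after sleep deprivation was -0.14 ± 0.302 SE in wild type (limma adjusted p = 0.856) and -0.93 ± 0.46 SE in knockout (95% interval -1.94 to 0.09, limma adjusted p = 0.437). Without KO_BL 2 the knockout value was -0.38 ± 0.257 SE (limma adjusted p = 0.719), and the baseline genotype difference turned from 0.42 ± 0.477 SE to -0.13 ± 0.273 SE (limma adjusted p = 0.982 and 0.93). The authors' deposited table gives the knockout comparison a p of 0.00888 and a false discovery rate of 0.174 for Ngfr.

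**Figure D2:**
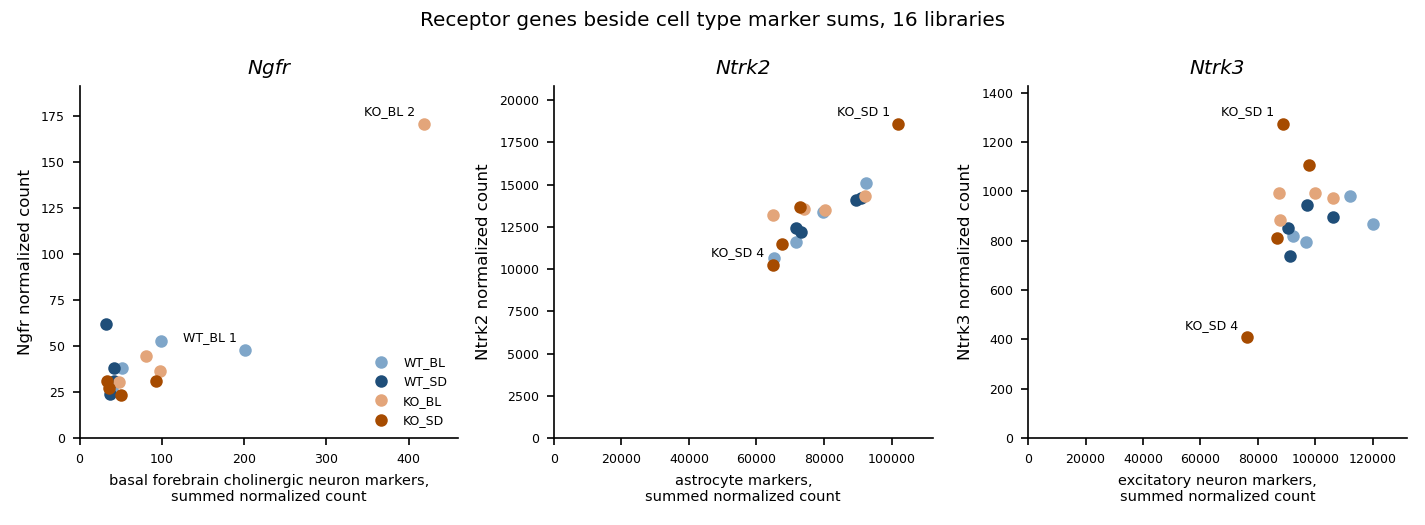
Normalized count of Ngfr, Ntrk2 and Ntrk3 (y axes) against the summed normalized count of cholinergic, astrocyte and excitatory neuron markers (x axes) in the 16 libraries, coloured by group. KO_BL 2 is highest on both axes for Ngfr (171 and 418.7), KO_SD 1 is highest on both for Ntrk2, and KO_SD 4 is lowest on both for Ntrk3 (408.7 and 76100).

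Across genotypes none of the 5 genes other than Bdnf passed at baseline or after sleep deprivation. The differences at baseline ran from -0.08 ± 0.299 SE for Ntf3 to 0.42 ± 0.477 SE for Ngfr, with Ntrk3 at 0.15 ± 0.0883 SE (95% interval -0.04 to 0.35) and limma adjusted p of 0.982 or more. After sleep deprivation they ran from -0.38 ± 0.53 SE for Ntf3 to -0.01 ± 0.17 SE for Ntrk2, with limma adjusted p = 1. The Ntf3 value was -0.91 without WT_SD 4, -0.76 without KO_SD 4 and -0.09 without WT_SD 1. The Ngfr value of -0.37 ± 0.289 SE was -0.12 without WT_SD 3 and -0.57 without WT_SD 1. The interactions were between -0.79 ± 0.593 SE for Ngfr and -0.12 ± 0.208 SE for Ntrk2, also with limma adjusted p = 1. Without KO_BL 2 the Ngfr interaction was -0.24 ± 0.406 SE, and without KO_BL 2 and KO_SD 4 it was -0.29 ± 0.427 SE. The Ntf3 interaction of -0.30 ± 0.652 SE ranged from -0.83 without WT_SD 4 to -0.01 without WT_SD 1. Averaged over both conditions, the values of these 5 genes were between -0.23 and 0.06.

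**Figure D3:**
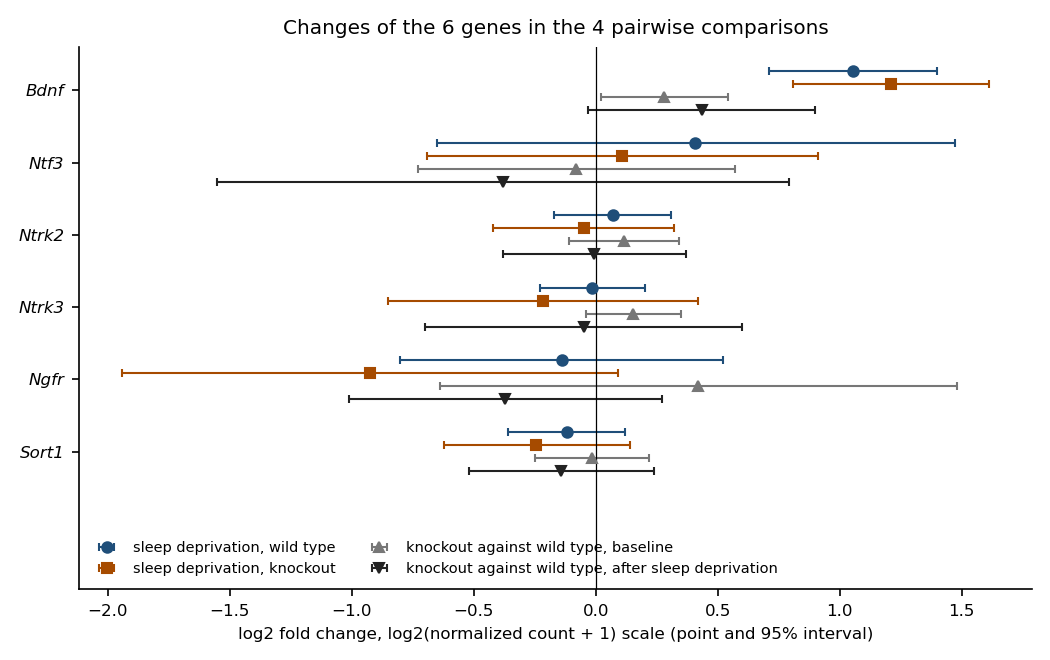
Log2 fold change (x axis, with 95% interval) of the 6 genes (y axis) in the 4 pairwise comparisons. The sleep deprivation intervals of Bdnf (0.71 to 1.40 in wild type, 0.81 to 1.61 in knockout) lie clear of 0, and those of Ntf3 and Ngfr are the widest.

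Levels were compared between genes as normalized counts per kb of the deposited gene length. The median level per kb over 16 libraries was 1860 for Sort1, 1730 for Ntrk2, 360 for Ntrk3, 175 for Bdnf, 18.7 for Ntf3 and 9.89 for Ngfr. Ranked among all tested genes by the mean level per kb, not the median, they fell at percentiles 92.5, 91.7, 61.6, 49.0, 13.8 and 8.3. Sort1 exceeded Ntrk2 in 11 of 16 libraries, with ranges that overlapped, so these neighbours did not separate. Ntrk2 exceeded Ntrk3 and Bdnf exceeded Ntf3 in all 16. Ntrk3 exceeded Bdnf in 15 of 16, the exception being KO_SD 4, and Ntf3 exceeded Ngfr in 14 of 16. The order of Ntrk3 and Bdnf depends on the deposited lengths, 2470 and 3940 bases. The counted Ntrk3 transcripts hold from 866 to 19703 exon bases. By normalized count without length, Bdnf exceeded Ntrk3 in WT_SD 1, 2 and 3 and in every KO_SD library, and Ntrk3 exceeded Bdnf in the rest.

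Relative to its receptor, Bdnf stood at 6.49 to 9.57 per 100 of Ntrk2 per kb in the 8 rested libraries and at 9.51 to 25.8 in the 8 sleep-deprived ones. The sleep-deprived libraries were higher within each genotype, and WT_SD 4, at 9.51, was the lowest of them. Ntrk2 exceeded Ntrk3 by 3.93 to 8.0 times per kb, the top value being that of KO_SD 4. These ratios are of levels per length, not of protein, and rest on the same deposited lengths.

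**Figure D4:**
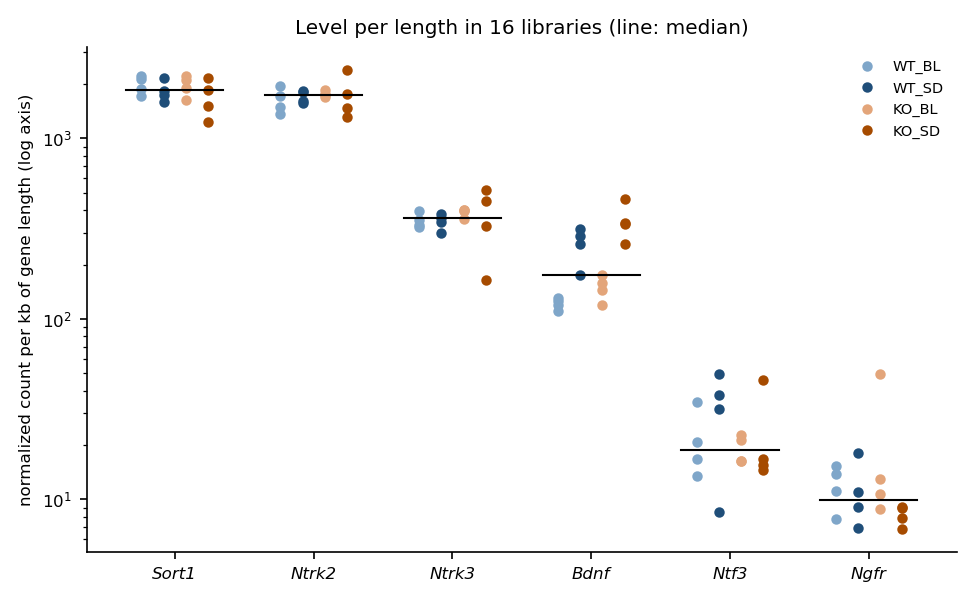
Normalized count per kb of gene length (y axis, log scale) for the 6 genes, ordered by their median (line). Points are the 16 libraries, coloured by group. Sort1 and Ntrk2 (medians 1860 and 1730) are the highest, and Ntf3 and Ngfr (18.7 and 9.89) the lowest.

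Other genes of the pathway were examined as 5 lists. Their counts at an unadjusted limma p under 0.05 after sleep deprivation are to be read beside those of all genes. These were 2495 of 14310 in wild type, 1765 of 14318 in knockout and 3982 of 14604 over both genotypes. The enzymes and carriers that process and release neurotrophins had 18 listed genes, of which 15 were tested in wild type and 16 in knockout. In wild type 1 rose, 0 fell and 14 did not pass, where 1.36% of all genes were called, with a median log2 fold change of 0.07 beside 0.00 for all genes, and in knockout 0 passed by limma (3 at an unadjusted p under 0.05), with a median of 0.15. The gene that rose was Pcsk1, the prohormone convertase that cleaves precursors in secretory granules. Its normalized counts were 534.4, 448.2, 617.7 and 428.9 in WT_BL and 922.4, 955.7, 1079 and 909.7 in WT_SD, groups that did not overlap, for a change of 0.94 ± 0.118 SE (limma adjusted p = 0.00383). In the knockout groups, which overlapped, it had 964.4, 662.4, 665.2 and 612.5 at baseline and 2099, 1384, 921.3 and 593.9 after sleep deprivation (0.65 ± 0.325 SE, limma adjusted p = 0.438). Over both genotypes Pcsk1 rose by 0.80 ± 0.19 SE (limma adjusted p = 0.0155), and Pcsk2, the second granule convertase, fell by 0.41 ± 0.079 SE (limma adjusted p = 0.00517). These 2 are 12.5% of the 16 tested, near the 10% of all genes. Furin, the convertase of the secretory route, had 0.11 ± 0.143 SE over both genotypes and did not pass (limma adjusted p = 0.67).

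Among 18 transcription factors known to act at Bdnf promoters, all tested, 1 rose, 0 fell and 17 did not pass in wild type (median log2 fold change 0.04, with 1.36% of all genes called), and 0 passed in knockout by limma (2 at an unadjusted p under 0.05, median 0.01, with 0.23% of all genes called). Crem, a cyclic AMP responsive factor with an inducible repressor form, was counted at 276.5, 280.1, 260.7 and 298.7 in WT_BL and 487.8, 440.9, 453.2 and 437 in WT_SD. The groups did not overlap, and the change was 0.70 ± 0.0889 SE (limma adjusted p = 0.00383). In knockout it went from 412, 254.4, 352.4 and 309.9 to 723.3, 533.8, 576.5 and 668. These groups did not overlap either, and the value of 0.92 ± 0.168 SE missed the threshold (limma adjusted p = 0.0615). Over both genotypes Crem rose by 0.81 ± 0.0937 SE (limma adjusted p = 7.17e-05), and this 1 call is 5.56% of the list against 10% of all genes. Npas4, an activity-induced factor, and Creb1 had 0.55 ± 0.25 SE and 0.06 ± 0.0963 SE over both genotypes and did not pass (limma adjusted p = 0.166 and 0.744). Furin, Npas4 and Creb1 are named for their known roles, after their values were seen.

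The list of Trk adaptors and signalling genes had 46 members, all tested. None passed within either genotype by limma (5 in wild type and 6 in knockout at an unadjusted p under 0.05), with medians of -0.06 and -0.14. Of all genes, 2495 of 14310 in wild type and 1765 of 14318 in knockout had an unadjusted limma p under 0.05. Over both genotypes 0 rose, 5 fell and 41 did not pass, 10.9% of the list against 10% of all genes, with a median of -0.08. The 5 were Camk4, a nuclear calcium/calmodulin kinase upstream of CREB (-0.49 ± 0.103 SE), Shc3, a neuronal Shc adaptor (-0.80 ± 0.23), Slitrk5, a membrane protein that binds TrkB (-0.31 ± 0.0829), Eef2k, the elongation factor kinase (-0.28 ± 0.0734), and Map2k5, the kinase of the ERK5 branch (-0.20 ± 0.0564). Their limma adjusted p were 0.008, 0.037, 0.0257, 0.026 and 0.0367. The WT_SD 4 library, lowest of its group for Bdnf, was highest of its group for Camk4 (6211 against 3979 to 4766) and for Shc3 (443.2 against 209.4 to 251.9).

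Without KO_BL 2 and KO_SD 4 the number of this list that fell was 2, Camk4 and Slitrk5. It was 3 without KO_BL 2 alone (Camk4, Eef2k and Slitrk5) and 4 without KO_SD 4 alone (all but Shc3), beside 8.55%, 6.92% and 10.8% of all genes. The other lists kept their calls in those 3 fits, except that Smpd3 was lost without KO_BL 2 and without both libraries.

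Of 20 genes for p75 adaptors and signalling, all tested, 0 passed within either genotype by limma (2 in wild type and 3 in knockout at an unadjusted p under 0.05, medians -0.03 and -0.05). Over both genotypes Rhoa, the small GTPase released by p75, rose by 0.24 ± 0.0607 SE, and Smpd3, a neutral sphingomyelinase, fell by 0.36 ± 0.096 SE (limma adjusted p = 0.0217 and 0.0274). These are 10% of the list, the same share as the 10% of all 14604 genes. Without KO_BL 2 the share was 5% against 6.92% of all genes. Among 8 other genes of the ligand and receptor families, which include the sortilin relatives Sorcs1, Sorcs2, Sorcs3 and Sorl1, 7 were tested. By limma 0 passed in wild type, in knockout or over both genotypes (1, 0 and 1 at an unadjusted p under 0.05), with medians of -0.04, -0.09 and -0.05. No gene of the 5 lists was called by limma in a genotype comparison or in the interaction. At an unadjusted limma p under 0.05 the processing list had 3 of 16 genes in the interaction, beside 160 of all 14604. It had 2 of 16 between genotypes after sleep deprivation, beside 232 of 14280, and 2 of 15 at baseline, beside 395 of 14341. Over both conditions it had 1 of 16 and the transcription factors 2 of 18, beside 456 of 14604. The transcription factors had 1 of 18 after sleep deprivation and the Trk list 1 of 46 at baseline. All other counts of these lists were 0.

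**Figure D5:**
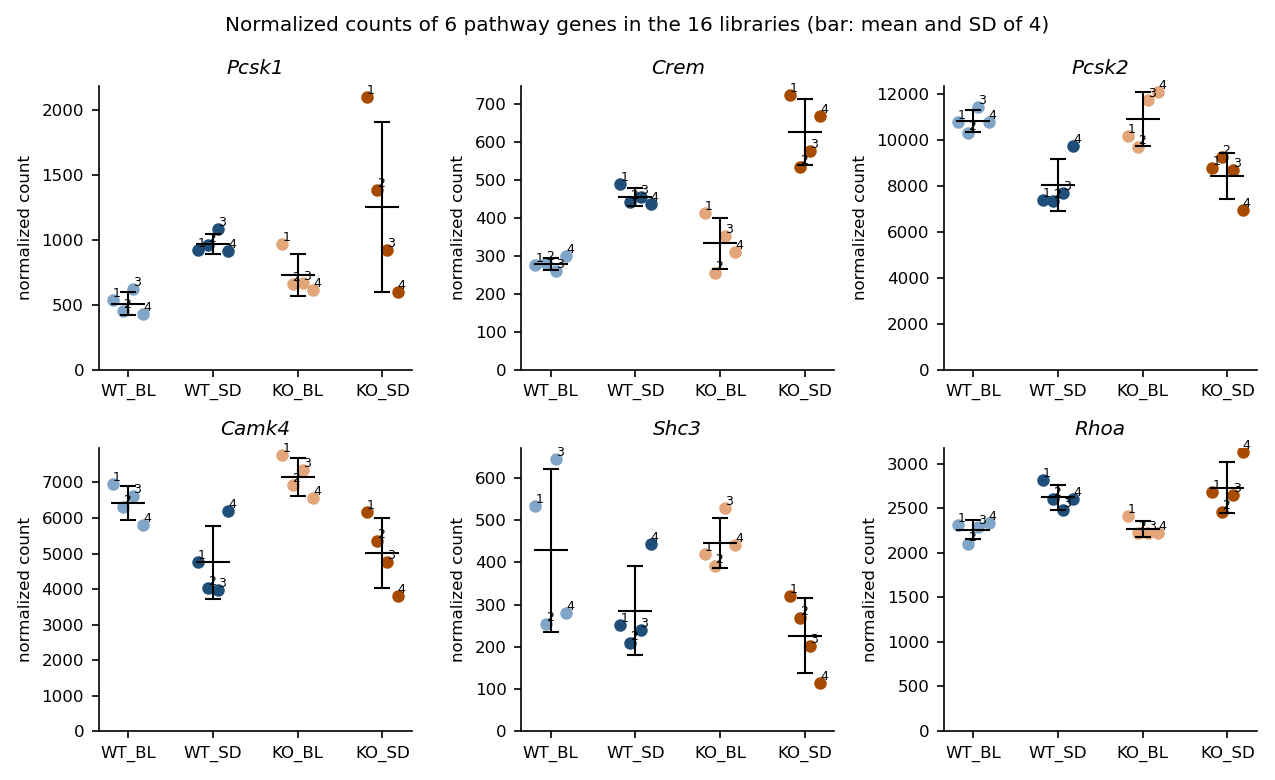
Normalized count (y axis, from 0) of Pcsk1, Crem, Pcsk2, Camk4, Shc3 and Rhoa in the 4 groups (x axis). Points are single libraries with their replicate number, and the bar is the mean and SD of 4. Pcsk1 in WT_SD (909.7 to 1079) lies above WT_BL, Crem in both sleep-deprived groups lies above the rested groups of its genotype, and Camk4 lies lower after sleep deprivation except in WT_SD 4 (6211).

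The genes most like each member were ranked by Pearson correlation of log2(normalized count + 1) over the 16 libraries, among 7126 genes above the median level. The points share library depth, tissue makeup and the sleep deprivation difference, so the values describe likeness only. For Bdnf the closest were Ptgs2, the inducible cyclooxygenase of active neurons (r = 0.972), Enox1 (0.948) and Trib2 (0.943). For Ntf3 they were Nsg2 (0.871), Nnat (0.861) and Nov (0.856). Ntrk2 was most like Lonrf2 (0.935), the Ras regulator Nf1 (0.925) and Ago2 (0.92). The nearest to Ntrk3 were Unc79 (0.962), Birc6 (0.95) and Rad54l2 (0.95), and those to Sort1 were the NMDA receptor subunit Grin2b (0.952), Med13l (0.947) and Mprip (0.939). Ngfr had no close match, with Fto (0.759), Vac14 (0.757) and Pgd (0.754) at the top.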

How the data were processed

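Cortex RNA was column-purified, treated with DNase I and run on a HiSeq2500, as the labels' protocols record. Of tools and builds, the submitters' processing notes list RSEM 1.2.19 and edgeR, and mm10 and GRCm38, without roles. Strandedness and the annotation release are not stated in what was used here, so antisense RNA that overlaps exons of Bdnf or Sort1 cannot be told apart from them.

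The deposited normalized counts are a signal: gene counts that the authors divided by a factor for each library, as the file headers and value steps show. The deposited FPKM values served as an alternative, and gene length is a deposited column. The authors' log2 ratio, p-value and false discovery rate are quoted as theirs. A further 48 per-sample columns were not used. Low values were whole multiples of 1 step, so reads were recovered (100% of values up to 20 reads within 0.1 of a whole number). Replicates differed by more than sampling noise (chi-square per degree of freedom of 7.94 or more).

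Tests were limma 3.58.1 (R 4.3.3), with trend and robust steps, on log2(normalized count + 1). They were two-sided, adjusted by Benjamini-Hochberg over all tested genes, with a threshold of 0.05. This scale understates changes of low genes. Pairwise fits held the 8 libraries of their own deposited sheet, and sheets, normalized separately, differed by at most 0.23% per library. The interaction and the average over both genotypes took wild type and knockout libraries from their own sheets. Alternatives were pseudocounts, filters, scalings, edgeR 4.0.16 and DESeq2 1.42.0 on recovered reads, a replicate block, and leaving out libraries.

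Members, gene lists and motifs were chosen with earlier results of these data known. Named genes were the 6 members, the listed genes past the threshold in any comparison (up to 6 a list) and the 3 genes most alike to each member. Bex3 was found under its RefSeq synonym. Coordinates are from GENCODE M21 (GRCm38), sequences from RefSeq (GRCm38.p6), in which 4 of the 6 members matched. Some listed genes are not reported here and were left out of the lists and the marker sum.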

Additional observations from a re-analysis of the deposited data

Results flagged for a closer look

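In each of 24 sets (6 genes in 4 groups of 4 libraries) the highest and lowest library were compared with the rest of the group, where chance singles out about 1 set in 20. In 2 sets a library lay beyond Dixon's critical value for 4 samples. The normalized count of Ntf3 was 62.97 in KO_SD 4 and 19.99 to 22.82 in the other 3 libraries of its group (gap of 0.934 of the range). The normalized count of Ngfr was 171 in KO_BL 2 and 30.38 to 44.54 in the other 3 (gap of 0.899). KO_BL 2 also had the highest cholinergic marker sum, 418.7, and KO_SD 4 the most extreme deviation of short and long genes, and their part in these values was not tested.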

How the results depend on the processing

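Of 1007 member values under another pseudocount, filter, scaling, tool or set of libraries, 953 kept direction and call, 46 turned in sign, none of those 46 a called value, and 8 lost the call. Bdnf in wild type and over both genotypes kept its call in all 20 and 29 alternatives (0.951 to 1.235 and 1.06 to 1.223). In knockout its value was 1.066 to 1.342, and the members called there went from 1 to 0 with no trend and no robust step (limma adjusted p = 0.0565) and without KO_BL 2 and KO_SD 4 together, and ranged from 0 to 1 as single libraries were left out. The cause was not tested. Without KO_BL 2 and KO_SD 4, an alternative chosen after the data were seen, the sign turned for Ntf3 (-0.341), Ntrk2 (0.067) and Ntrk3 (0.083) in knockout, Ntrk3 in the interaction (0.097) and over both genotypes (0.035), and Ngfr (-0.27) and Sort1 (0.034) between genotypes over both conditions. After sleep deprivation, edgeR and DESeq2 both gave the knockout difference as 0.028 for Ntrk2 and 0.068 for Ntrk3.

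As single libraries were left out, uncalled values crossed 0 over these ranges. For sleep deprivation in wild type these were Ntrk2 from -0.008 to 0.16, Ntrk3 from -0.062 to 0.055 and Ngfr from -0.389 to 0.059. In knockout these were Ntf3 from -0.271 to 0.265, Ntrk2 from -0.216 to 0.069 and Ntrk3 from -0.423 to 0.123. Between genotypes at baseline these were Ntf3 from -0.268 to 0.176, Ngfr from -0.128 to 0.69 and Sort1 from -0.081 to 0.067. Between genotypes after sleep deprivation these were Ntrk2 from -0.171 to 0.115 and Ntrk3 from -0.256 to 0.289. For the interaction these were Bdnf from -0.024 to 0.287, Ntrk3 from -0.409 to 0.137 and Sort1 from -0.254 to 0.015. Between genotypes over both conditions these were Ntrk2 from -0.026 to 0.117, Ntrk3 from -0.051 to 0.222 and Ngfr from -0.248 to 0.161. For sleep deprivation over both genotypes these were Ntrk2 from -0.073 to 0.07 and Ntrk3 from -0.218 to 0.054.

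The same replicate numbers did not match throughout (correlations of same-numbered libraries -0.401 to 0.376). The libraries numbered 1 correlated at 0.166 to 0.376 in all 6 pairs of groups, each the best match. KO_BL 4 was also the best match of WT_BL 4 (0.291). Whether a shared number marks a shared batch was not tested. With the number as a replicate block Bdnf had a limma adjusted p of 0.000754 in wild type, 0.0111 in knockout and 7.27e-05 over both genotypes, no member call changed, and all genes called went from 194 to 230, 33 to 47 and 1461 to 1663. Over all genes, DESeq2 called 674 in wild type and 309 in knockout, limma with no trend or robust step 102 in wild type, and 1 model of 16 libraries 79 and 218. Under the filter of a mean of 50 Ntf3 gave no value, and Ngfr gave one (0.418) between genotypes at baseline and in no other comparison. Their depth of 10 to 63 and 18 to 207 reads limits what could be detected.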
